A study of Arabidopsis thaliana with 12 samples.

Results

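Nuclear photosystem and light-harvesting genes were followed in Arabidopsis thaliana plants that carry a mutation in YDL1 or do not. The set holds 42 loci of 36917 in the count tables and was listed by gene family, with earlier results of these data known: 15 LHCB genes, 6 LHCA genes, 12 PSA genes and 9 PSB genes. The study sequenced RNA from 12 libraries, 6 of the genotype flu/ex1/ydl1 and 6 of the genotype flu/ex1, with 2 libraries for each genotype at each of 3 light times. All plants were 6 d old, had grown in continuous light, were kept for 4 h in darkness and were then returned to light for 0, 30 or 60 min. The flu and ex1 mutations are shared by both genotypes, so flu/ex1 is the control for ydl1 and not a wild type. From its title, the series asks about the part of YDL1 in the transcript response to singlet oxygen. The level of YDL1 itself was not analysed here, because no locus of the gene table used carries that name.

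Light energy enters photosynthesis through proteins that hold chlorophyll in the thylakoid membrane of the plastid. LHCB proteins form the antenna of photosystem II and LHCA proteins that of photosystem I. PSA genes encode subunits of photosystem I. The nuclear PSB genes encode the oxygen-evolving proteins on the lumenal side of photosystem II and several of its small subunits. These genes lie in the nucleus, their products are imported into the plastid, and their transcripts are known to depend on light and on signals from the plastid. In flu plants protochlorophyllide builds up in darkness, and on return to light this pigment makes singlet oxygen. EX1 is a plastid protein that passes on part of this signal to the nucleus.

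The light time in the sample label and the light time coded in the name of the deposited count table differ for 8 of the 12 libraries, while the genotype is the same in both. Light times here follow the file names, and so do the names of the libraries. Counts of called genes, medians and the main values of single genes are also given by the labelled times. Label and file name give 1 time for 4 libraries: flu/ex1/ydl1 0 min replicate 1, flu/ex1/ydl1 60 min replicate 1, flu/ex1 0 min replicate 2 and flu/ex1 60 min replicate 1. Nothing in the labels says that replicate libraries were grown or sampled apart, so p-values measure only the spread between these libraries, which may be technical. Total counts ran from 7859611 to 11591060 per library, and plastid loci took 63.3% to 71.7% of them. The 42 genes together took 5.94% to 8.03% of the counts on nuclear loci in flu/ex1/ydl1 and 6.26% to 8.58% in flu/ex1. The lowest flu/ex1 value belongs to flu/ex1 0 min replicate 2, in which ribosomal RNA loci took 0.828% of the total, against at most 0.0458% in any other library. Root marker genes summed to 37.7 to 49.9 CPM (normalised read counts) in flu/ex1/ydl1 and 41.0 to 55.8 CPM in flu/ex1, nearly all of it from PYK10, and seed storage markers to at most 2.14 CPM in any library.

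All 42 genes had enough counts to be tested, as did 17879 loci in all. Every fold change below is on the log2 scale with its standard error, and comes from edgeR's quasi-likelihood test with Benjamini-Hochberg adjustment over all 17879 loci and a threshold of 0.05. CPM are relative to all counts of a library, plastid counts included, scaled by TMM factors. RNA was extracted from plants in bulk, so fewer cells of a type and less RNA per cell cannot be told apart. How reads that fit several loci were counted is not given in the sources used here. Values of near-identical copies, such as the LHCB1 genes, the LHCB2 genes and the PSBO pair, may therefore share reads and are uncertain.

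**Figure D1:**
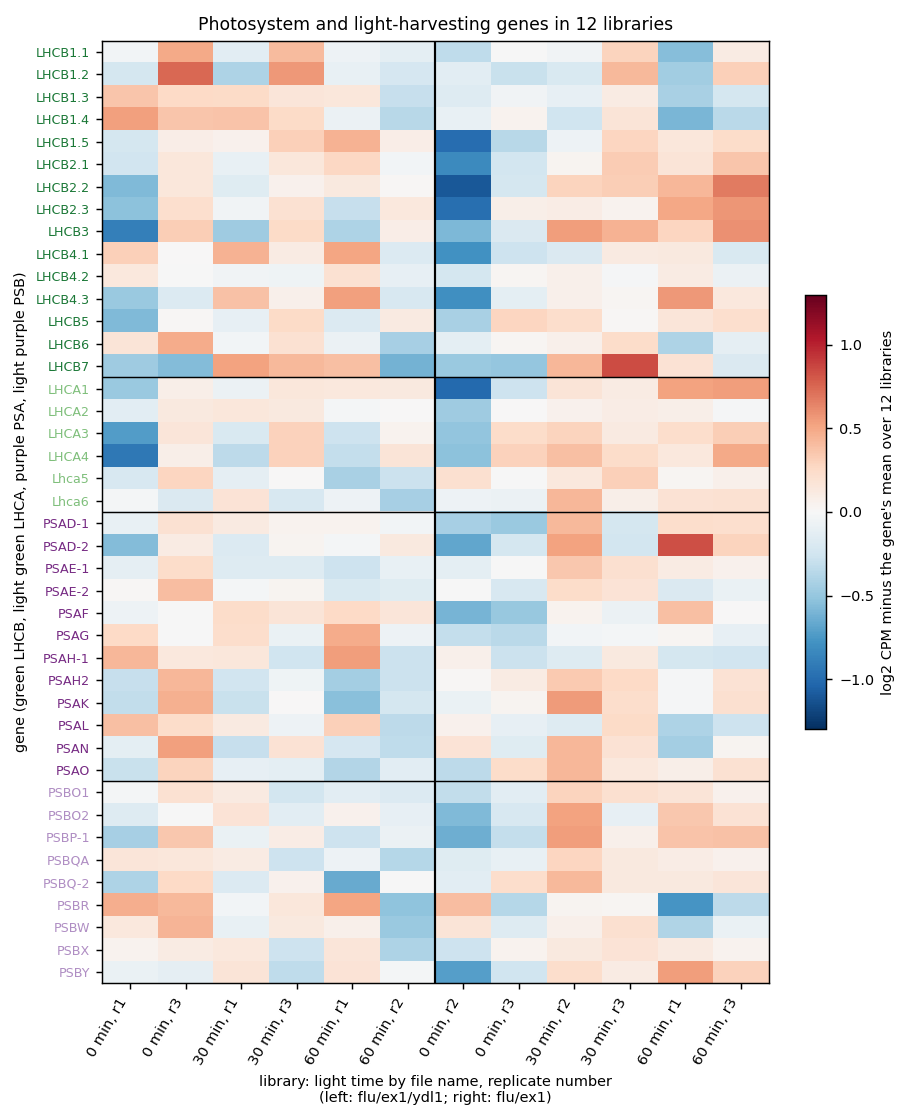
Log2 CPM of each of the 42 genes minus that gene's mean over the 12 libraries, with genes down the page by family and libraries across, the 6 flu/ex1/ydl1 libraries left of the 6 flu/ex1 libraries and light times by file name. In flu/ex1 0 min replicate 2, 35 of the 42 genes lie below their own mean, and in flu/ex1/ydl1 0 min replicate 3 only 8 do.

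The flu/ex1/ydl1 libraries numbered 1 in the file names, 1 at each light time, were all below the other 3 flu/ex1/ydl1 libraries for 9 of the 42 genes, LHCB2.3, LHCB3, LHCB5, LHCA3, LHCA4, PSAD-2, PSAK, PSBP-1 and PSBQ-2. That is 21.4% of the genes, against 7.53% of all tested loci. They were all above the other 3 for LHCB4.1, Lhca6, PSAG and PSAH-1, or 9.52%, against 6.25% of all loci. LHCA4 had 298, 449 and 459.95 CPM in the libraries numbered 1, and 599.5, 702 and 640.5 CPM in the others. PSAH-1 had 342, 281 and 369 CPM in the libraries numbered 1, and 278, 212 and 209 CPM in the others. The labels do not say what a replicate number marks, and labelled numbers differ for 2 of these 3 libraries. The pattern in the flu/ex1/ydl1 libraries numbered 1 was noticed in the data and was not tested. By file name the replicate numbers are not balanced between the genotypes. The flu/ex1/ydl1 libraries are numbered 1 and 3 at 0 and 30 min, and 1 and 2 at 60 min. The flu/ex1 libraries are numbered 2 and 3 at 0 and 30 min, and 1 and 3 at 60 min. Differences by replicate number and by genotype can therefore not be fully told apart.

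The genotypes were first compared over all 12 libraries, with the light times averaged. No photosystem or light-harvesting gene passed: 0 of 42 were called, while 8.97% of all tested loci were. The 42 log2 fold changes of flu/ex1/ydl1 over flu/ex1 ran from -0.32 to 0.41 with a median of -0.07, against a median of -0.01 over all loci. For each of the 42 genes the 95% interval of the difference lay within a doubling or halving, the lowest bound being -0.77 and the highest 0.79. Unadjusted p-values were under 0.05 for LHCB1.4 and LHCB4.1, 2 of the 42 genes (23% of all loci), and DESeq2 called 0 (8.08% of loci). The sign of this small median rests on single libraries: it was 0.01 when replicate 1 at 0 min of flu/ex1/ydl1 or replicate 3 at 0 min of flu/ex1 was left out, and -0.11 when replicate 2 at 0 min of flu/ex1 was. It was 0.05 when the 3 flu/ex1/ydl1 libraries numbered 1 were left out, an alternative chosen after the data were seen. With labelled times the median was again -0.07 and 0 of 42 were called, where 0.0336% of loci were.

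Among the antenna genes of photosystem II, 10 of 15 LHCB genes had a positive difference. LHCB1.3 (AT1G29930), an LHCB1 gene for the main trimeric antenna and the LHCB gene with the highest mean CPM, had a lowest, median and highest level of 4881, 6917 and 7728 CPM in flu/ex1/ydl1, against 4473, 5464 and 6464 CPM in flu/ex1. Its ranges overlap, and its difference was 0.29 ± 0.18 (adjusted p = 0.360). LHCB1.4 (AT2G34430), another gene for that antenna, had 267.9, 425.2 and 498.5 CPM in flu/ex1/ydl1, against 228.5, 304.5 and 387 CPM in flu/ex1, a difference of 0.35 ± 0.15 (adjusted p = 0.170). LHCB4.1 (AT5G01530) encodes CP29, an antenna protein between the trimers and the reaction centre. It had 503.2, 658.1 and 810 CPM in flu/ex1/ydl1, against 330.8, 497.4 and 620.4 CPM in flu/ex1, a difference of 0.41 ± 0.18 (adjusted p = 0.181). LHCB3 (AT5G54270), another trimer protein, lay at the other end with -0.31 ± 0.21 (adjusted p = 0.403). It averaged 431 ± 134 CPM in flu/ex1/ydl1 and 554 ± 159 CPM in flu/ex1 (SD, n = 6 each).

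Of the 6 LHCA genes 5 had a negative difference, with a median of -0.23. LHCA4 (AT3G47470), which pairs with LHCA1 in the antenna belt of photosystem I, had 298, 529.7 and 702.1 CPM in flu/ex1/ydl1, against 394, 686 and 798.9 CPM in flu/ex1, a difference of -0.32 ± 0.21 (adjusted p = 0.394). Leaving out the 3 flu/ex1/ydl1 libraries numbered 1, which all lie below the other 3 for this gene, moved the difference to 0.0055. Lhca5 (AT1G45474) and Lhca6 (AT1G19150) help to tie photosystem I to the NDH complex of cyclic electron flow. Lhca5 had 46.5, 55.9 and 75.6 CPM in flu/ex1/ydl1, against 62.3, 67.1 and 77.6 CPM in flu/ex1 (-0.24 ± 0.14, adjusted p = 0.310). Lhca6 averaged 28.6 ± 4.09 CPM in flu/ex1/ydl1 and 33.9 ± 4.59 CPM in flu/ex1 (SD, n = 6 each), a difference of -0.24 ± 0.14 (adjusted p = 0.325).

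The PSA genes were split evenly, 6 positive and 6 negative. PSAL (AT4G12800), a subunit at the side of photosystem I where mobile LHCII docks, averaged 901 ± 158 CPM in flu/ex1/ydl1 and 773 ± 128 CPM in flu/ex1 (SD, n = 6 each), a difference of 0.22 ± 0.17 (adjusted p = 0.463). PSAG (AT1G55670), which helps to bind the LHCA belt, had 289.8, 332.9 and 428 CPM in flu/ex1/ydl1, against 240.7, 292.5 and 312.4 CPM in flu/ex1 (0.28 ± 0.15, adjusted p = 0.283). PSAH2 (AT1G52230), one of the pair of genes for the PSI-H subunit, went the other way with 178.5, 202.7 and 328.1 CPM in flu/ex1/ydl1, against 241, 269.9 and 307.1 CPM in flu/ex1 (-0.28 ± 0.16, adjusted p = 0.292). Its partner PSAH-1 (AT3G16140) had 0.26 ± 0.17 (adjusted p = 0.382), so the 2 copies had differences of opposite sign, neither past the threshold.

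Of the 9 PSB genes 7 had a negative difference. PSBR (AT1G79040), a small lumenal protein of photosystem II, averaged 2628 ± 648 CPM in flu/ex1/ydl1 and 2093 ± 585 CPM in flu/ex1 (SD, n = 6 each), and its difference of 0.34 ± 0.21 was positive (adjusted p = 0.354). PSBQ-2 (AT4G05180), a gene for the PsbQ protein of the oxygen-evolving complex, had 167.6, 249 and 315.5 CPM in flu/ex1/ydl1, against 241.4, 292.5 and 354.1 CPM in flu/ex1 (-0.29 ± 0.17, adjusted p = 0.332). The other 7 PSB genes lay between -0.13 for PSBP-1 and 0.07 for PSBW. Leaving out the same 3 libraries moved PSBQ-2 to -0.04, PSBR to 0.18, LHCB4.1 to 0.18, PSAL to 0.06, PSAG to 0.10, PSAH2 to -0.10 and Lhca5 to -0.11.

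**Figure D2:**
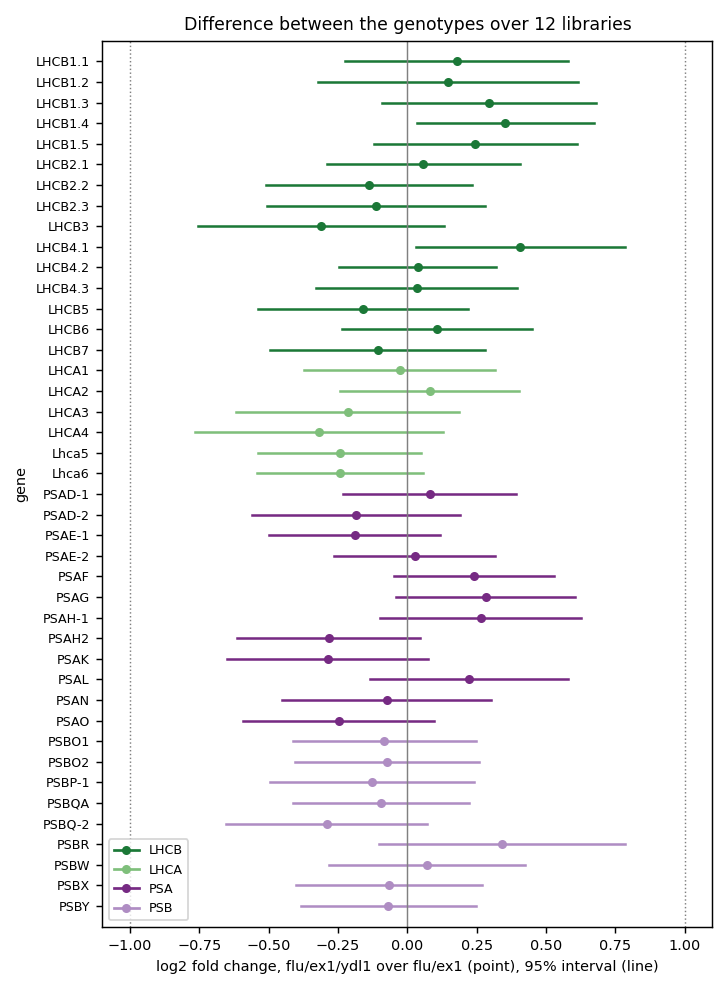
Log2 fold change of flu/ex1/ydl1 over flu/ex1 across 12 libraries for each gene (point) with its 95% interval (line), coloured by gene family, with dotted lines at a doubling and a halving. All 42 intervals lie between the dotted lines, and those of LHCB1.4 and LHCB4.1 do not cross 0.

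At each single light time the genotypes were compared with 2 libraries each. At 0 min 0 of 42 genes were called (0.0112% of loci were), 35 of 42 differences were positive and the median was 0.29. All 12 PSA genes had a positive difference at 0 min, while 4 of 6 LHCA genes had a negative one. At 30 min 0 of 42 were called (3.92% of loci), 12 differences were positive and the median was -0.15. At 60 min 0 of 42 were called (9.86% of loci), 12 differences were positive, all 6 LHCA genes were negative and the median was -0.19. Unadjusted p-values under 0.05 went to 2 genes at 0 min (3.98% of loci), to 0 at 30 min (15.2% of loci) and to 0 at 60 min (21.2% of loci). DESeq2 called 0 at each time, where it called 0.0112%, 3.91% and 8.41% of loci. The genes nearest the threshold by unadjusted p at 0 min were LHCB4.1 with 0.67 ± 0.31 and PSAF (AT1G31330), the plastocyanin docking subunit of photosystem I, with 0.50 ± 0.24 (adjusted p = 0.984 for both). PSAF had 131 and 137 CPM in flu/ex1/ydl1 at 0 min, against 90.8 and 98.2 CPM in flu/ex1.

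The medians at 0 and 60 min depend on single libraries. At 60 min the median was -0.11 when replicate 2 at 60 min of flu/ex1/ydl1 was left out. At 0 min it was 0.14 with 32 genes positive without flu/ex1 0 min replicate 2, and 0.11 with 27 positive without flu/ex1/ydl1 0 min replicate 3. It rose to 0.42 with 39 positive without flu/ex1 0 min replicate 3, and to 0.37 with 40 positive without flu/ex1/ydl1 0 min replicate 1. By labelled times the medians were 0.05, 0.04 and -0.15 at 0, 30 and 60 min, and 0 of 42 genes were called at each time (0.0112%, 0% and 0% of loci).

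The effect of light was compared within each genotype, again with 2 libraries at each time. In flu/ex1/ydl1 at 30 min 0 of 42 were called (5.39% of loci), 19 were positive and the median was -0.04. At 60 min 0 of 42 were called (12.8% of loci), 17 were positive and the median was -0.12. The families differed in direction: at both times 9 of 12 PSA and 7 of 9 PSB genes were negative, while 9 of 15 LHCB genes were positive. Of the 6 LHCA genes 5 were positive at 30 min and 3 at 60 min. In flu/ex1 at 30 min 0 of 42 were called (0.649% of loci), but 40 of 42 fold changes were positive, with a median of 0.33. In flu/ex1 at 60 min 0 of 42 were called (1.38% of loci), 31 were positive and the median was 0.23. In flu/ex1/ydl1 unadjusted p-values under 0.05 went to 1 gene at 30 min and 1 at 60 min, while 15.5% and 25.3% of all loci had one. In flu/ex1 they went to 11 and 13 genes, while 8.08% and 14.5% of all loci had one. DESeq2 called 0 genes at either time in flu/ex1/ydl1 (5.13% and 10.7% of loci) and 0 at 30 min in flu/ex1 (1.51% of loci). At 60 min in flu/ex1 DESeq2 called 4, LHCA1, LHCB2.2, PSAF and PSBY, all higher, or 9.52% of the genes against 2.52% of loci. Without the filter on low counts edgeR called LHCB7 in flu/ex1 at 30 min (1.16% of loci) and LHCA1, LHCB2.2 and PSAD-2 at 60 min (2.25% of loci).

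Both light comparisons of a genotype share its 0 min libraries, and in flu/ex1 one of these is replicate 2, where the 42 genes took their lowest share of nuclear counts among the flu/ex1 libraries. Without that library the flu/ex1 median was 0.31 at 30 min, with 38 genes positive, and 0.08 at 60 min, with 29 positive. Without flu/ex1 0 min replicate 3 the medians were 0.51 and 0.40. In flu/ex1/ydl1 the median at 30 min was 0.17, with 27 genes positive, when replicate 3 at 0 min was left out, and -0.16 when replicate 1 at 0 min was. At 60 min these medians were 0.0047 and -0.21, and leaving out replicate 2 at 60 min gave -0.02. Without the 3 flu/ex1/ydl1 libraries numbered 1, an alternative chosen after the data were seen, most genes were negative. The median was then -0.12 with 11 genes positive at 30 min, and -0.19 with 9 positive at 60 min. By labelled times 0 of 42 genes were called in each of the 4 comparisons (0% of loci in each), with medians of 0.11 and 0.04 at 30 and 60 min in flu/ex1/ydl1 and of 0.07 and 0.23 in flu/ex1.

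**Figure D3:**
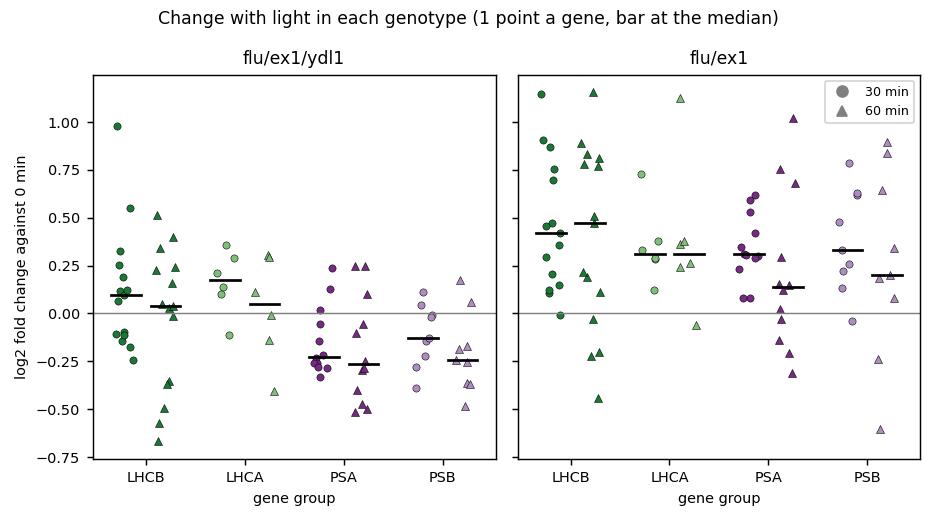
Log2 fold change against 0 min of each gene at 30 min (circles) and 60 min (triangles), by gene family, in flu/ex1/ydl1 (left panel) and flu/ex1 (right panel), with a bar at each family's median. The family medians in flu/ex1 lie between 0.14 and 0.47, and those of the PSA and PSB families in flu/ex1/ydl1 lie below 0.

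In flu/ex1 the antenna genes LHCA1 and LHCB2.2 had the 2 smallest p-values of the 42 genes at 60 min. Their calls depend on the method: edgeR with the filter put neither past the threshold, DESeq2 put both past it (adjusted p = 0.00511 and 0.0132), and so did edgeR without the filter (adjusted p = 0.00802 and 0.00545). LHCA1 (AT3G54890) encodes one of the LHCA belt proteins, and its difference was 0.31 ± 0.28 in flu/ex1/ydl1 (adjusted p = 0.559), against 1.13 ± 0.29 in flu/ex1 (adjusted p = 0.0615). LHCB2.2 (AT2G05070) encodes an LHCB2 protein of the trimers, which is phosphorylated when LHCII moves between the photosystems. Its difference was 0.24 ± 0.30 in flu/ex1/ydl1 (adjusted p = 0.688), against 1.16 ± 0.31 in flu/ex1 (adjusted p = 0.0763). By labelled times LHCA1 had 0.40 ± 0.37 in flu/ex1/ydl1, against 0.71 ± 0.37 in flu/ex1, and LHCB2.2 had 0.44 ± 0.41 in flu/ex1/ydl1, against 0.58 ± 0.41 in flu/ex1.

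Whether light acted differently in the genotypes was tested as an interaction at 60 min, the change in flu/ex1/ydl1 minus the change in flu/ex1. Again 0 of 42 genes were called (3.26% of loci were). The differences were negative for 38 of 42 genes, with a median of -0.38, against -0.02 over all loci. Both genes with an unadjusted p under 0.05 (12.1% of loci) were negative: PSBP-1 (AT1G06680), for the PsbP protein of the oxygen-evolving complex, at -1.02 ± 0.43 (adjusted p = 0.303) and LHCB2.2 at -0.92 ± 0.43 (adjusted p = 0.408). DESeq2 called 0 (3.69% of loci). PSBP-1 had 374 and 642 CPM at 0 min and 416 and 477 CPM at 60 min in flu/ex1/ydl1, while flu/ex1 had 324 and 405 CPM at 0 min and 648 and 656 CPM at 60 min. Leaving out flu/ex1/ydl1 0 min replicate 3 moved the median of the interaction to -0.20. It was -0.61 when the 3 flu/ex1/ydl1 libraries numbered 1 were left out. By labelled times it was -0.15, with 24 of 42 negative and 0 called (0% of loci), and PSBP-1 and LHCB2.2 had -0.53 ± 0.45 and -0.14 ± 0.58.

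Pooling both genotypes gives 4 libraries a light time. At 30 min LHCB7 (AT1G76570), a gene for a rare light-harvesting protein related to the photosystem II antenna, rose, and 1 of 42 genes was called (5.27% of loci were, 4.5% higher). At 60 min LHCA1, LHCB2.2 and LHCB4.3 rose, so 3 of 42 were called, none lower (15.5% of loci, 9.82% higher). In this fit both shares lie below those of all loci. At 60 min DESeq2 called 6 of 42, or 14.3% against 13.2% of loci, edgeR without the filter 5 of 42, or 11.9% against 10.3%, and edgeR with the replicate number as a block 5 of 42, or 11.9% against 15.1%. Over all 42 genes the median was 0.15 at 30 min and 0.06 at 60 min, and leaving out 1 library at a time it ran up to 0.27 at 30 min and between 0.01 and 0.13 at 60 min. By labelled times these medians were 0.09 and 0.12.

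LHCB7 had 4.06 and 3.79 CPM at 0 min, 8.04 and 7.49 CPM at 30 min and 7.33 and 3.65 CPM at 60 min in flu/ex1/ydl1. In flu/ex1 it had 4.01 and 3.94 CPM at 0 min, 7.54 and 10.1 CPM at 30 min and 6.37 and 4.92 CPM at 60 min. All 4 libraries at 30 min lie above all 4 at 0 min, and the 4 at 60 min run from below the 0 min libraries to close to the 30 min ones. The change at 30 min was 2.09-fold, or 1.06 ± 0.23 on the log2 scale (adjusted p = 0.00774), and the parts in each genotype were 0.98 ± 0.33 in flu/ex1/ydl1 and 1.14 ± 0.32 in flu/ex1. The gene is thinly covered, with 29 to 101 counts per library. By labelled times the same difference was -0.69 ± 0.30 (adjusted p = 0.618), so its sign depends on which times are right.

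LHCA1 had 157 and 230 CPM at 0 min, 207 and 241 CPM at 30 min and 240.0 and 238 CPM at 60 min in flu/ex1/ydl1. In flu/ex1 it had 108 and 181 CPM at 0 min, 245 and 234 CPM at 30 min and 314 and 318 CPM at 60 min. The 4 libraries at 60 min lie above the 4 at 0 min, the gap being small in flu/ex1/ydl1. The pooled change at 60 min was 1.64-fold, or 0.72 ± 0.20 (adjusted p = 0.0223).

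LHCB2.2 had 113 and 187 CPM at 0 min, 151 and 175 CPM at 30 min and 185 and 170.2 CPM at 60 min in flu/ex1/ydl1. In flu/ex1 it had 78.7 and 144 CPM at 0 min, 207 and 211 CPM at 30 min and 227 and 271 CPM at 60 min. The times overlap in flu/ex1/ydl1 and not in flu/ex1, and the pooled change at 60 min was 1.62-fold, or 0.70 ± 0.22 (adjusted p = 0.0365).

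LHCB4.3 (AT2G40100) encodes another form of CP29. It had 12.2 and 15.04 CPM at 0 min, 22.2 and 17.8 CPM at 30 min and 24.7 and 14.8 CPM at 60 min in flu/ex1/ydl1. In flu/ex1 it had 9.83 and 15.6 CPM at 0 min, 17.8 and 17.3 CPM at 30 min and 25.2 and 18.8 CPM at 60 min. Here 1 of the 4 libraries at 60 min lies within the range at 0 min, and the pooled change at 60 min was 1.57-fold, or 0.65 ± 0.21 (adjusted p = 0.0475).

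The calls at 60 min are fragile. LHCA1 lost its call without flu/ex1/ydl1 0 min replicate 1 (adjusted p = 0.0916), flu/ex1 0 min replicate 2 (adjusted p = 0.101), flu/ex1 60 min replicate 1 (adjusted p = 0.0671) or flu/ex1 60 min replicate 3 (adjusted p = 0.0611). LHCB2.2 lost its call (adjusted p = 0.0505 to 0.153) when any 1 of 7 libraries was left out, which were replicate 1 at 0 min and replicate 2 at 60 min of flu/ex1/ydl1 and all flu/ex1 libraries but replicate 3 at 0 min. LHCB4.3 kept its call only when replicate 2 at 60 min of flu/ex1/ydl1, or replicate 3 at 0 or 60 min of flu/ex1, was the library left out (adjusted p = 0.0555 to 0.185 for the other 9). It also lost it with DESeq2 (adjusted p = 0.0511) and with the replicate number as a block (adjusted p = 0.0578). Leaving out the 3 flu/ex1/ydl1 libraries numbered 1, LHCA1, LHCB2.2 and LHCB4.3 had adjusted p of 0.108, 0.181 and 0.295 in that order. By labelled times LHCA1 had 0.55 ± 0.26, LHCB2.2 0.51 ± 0.29 and LHCB4.3 0.48 ± 0.26 (adjusted p = 0.776 for each), and 0 of 42 genes were called at 30 or 60 min (0% of loci).

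**Figure D4:**
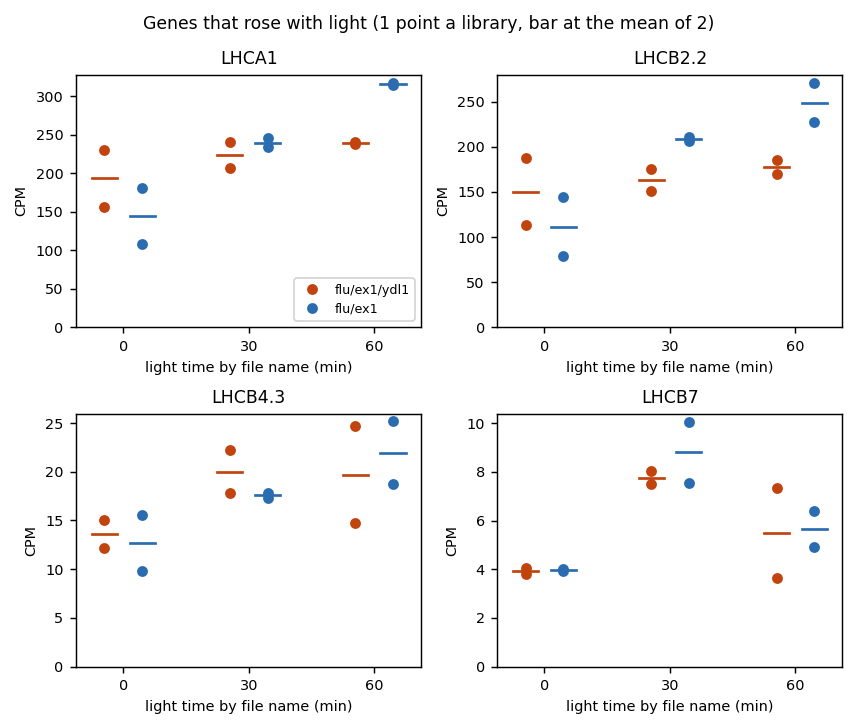
CPM of the 4 called genes in each library by light time in file names, with flu/ex1/ydl1 left of flu/ex1 at each time and a bar at the mean of 2 libraries. LHCB7 is highest at 30 min, and LHCA1 and LHCB2.2 are highest at 60 min in flu/ex1.

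Other genes with small p at 60 min did not pass with edgeR after the filter. DESeq2 called PSAF (adjusted p = 0.0213) and PSBY (adjusted p = 0.0343), and edgeR without the filter called PSAD-2 (adjusted p = 0.0184). PSAD-2 (AT1G03130), a gene for the ferredoxin docking subunit of photosystem I, averaged 26.6 ± 6.66 CPM at 0 min, 34.5 ± 8.93 CPM at 30 min and 41.8 ± 11.7 CPM at 60 min (SD, n = 4 each), with a difference at 60 min of 0.63 ± 0.22 (adjusted p = 0.0598). PSAF averaged 114 ± 23.2, 147 ± 14.0 and 159 ± 17.7 CPM at 0, 30 and 60 min, with 0.50 ± 0.17 at 60 min (adjusted p = 0.0529). PSBY (AT1G67740), a small membrane subunit of photosystem II, averaged 110 ± 20.4, 139 ± 22.4 and 160.1 ± 26.9 CPM, with 0.54 ± 0.18 at 60 min (adjusted p = 0.0580). Of the genes with the highest mean CPM in their families, LHCB1.3 was at -0.30 ± 0.22 (adjusted p = 0.417), LHCA4 at 0.34 ± 0.26 (adjusted p = 0.425), PSAL at -0.30 ± 0.21 (adjusted p = 0.359) and PSBR at -0.49 ± 0.26 (adjusted p = 0.225). Lhca5 had the second smallest p of the LHCA genes, at -0.23 ± 0.17 (adjusted p = 0.392). By labelled times the differences at 60 min were 0.75 ± 0.20 for PSAD-2, 0.33 ± 0.19 for PSAF and 0.27 ± 0.22 for PSBY. They were -0.19 ± 0.19 for LHCB1.3, 0.50 ± 0.23 for LHCA4, -0.28 ± 0.18 for PSAL, -0.22 ± 0.26 for PSBR and -0.11 ± 0.18 for Lhca5, with none past the threshold.

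LHCB1.4 and LHCB1.5 (AT2G34420), neighbouring genes that both encode LHCB1, had light differences of opposite sign at 60 min. LHCB1.5 had 713 and 890 CPM at 0 min, 872 and 1040 CPM at 30 min and 1145 and 889 CPM at 60 min in flu/ex1/ydl1. The flu/ex1 libraries had 422 and 654 CPM at 0 min, 802 and 1016 CPM at 30 min and 926 and 988 CPM at 60 min. LHCB1.4 had 499 and 442 CPM at 0 min, 444 and 408 CPM at 30 min and 325 and 268 CPM at 60 min in flu/ex1/ydl1. The flu/ex1 libraries had 322 and 355 CPM at 0 min, 287 and 387 CPM at 30 min and 229 and 271 CPM at 60 min. Neither passed with edgeR after the filter at 60 min (0.59 ± 0.21, adjusted p = 0.0718 for LHCB1.5, and -0.55 ± 0.19, adjusted p = 0.0528 for LHCB1.4). DESeq2 called both, with adjusted p of 0.0242 for LHCB1.5 and 0.0142 for LHCB1.4. So did edgeR with the replicate number as a block (adjusted p = 0.0312 and 0.0483), and edgeR without the filter called LHCB1.5 (adjusted p = 0.0487). By labelled times LHCB1.5 had 0.36 ± 0.26 and LHCB1.4 -0.41 ± 0.20 (adjusted p = 0.776 for both).

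Their ratio within a library does not depend on its depth. LHCB1.5 had 1.43 and 2.01 counts for each LHCB1.4 count at 0 min, 1.97 and 2.55 at 30 min and 3.52 and 3.32 at 60 min in flu/ex1/ydl1. In flu/ex1 the ratio was 1.31 and 1.84 at 0 min, 2.79 and 2.63 at 30 min and 4.05 and 3.65 at 60 min. Over both genotypes it averaged 1.65 ± 0.33, 2.48 ± 0.36 and 3.64 ± 0.31 at 0, 30 and 60 min (SD, n = 4 each). The 60 min libraries lie above all others, and the 0 and 30 min libraries overlap slightly in flu/ex1/ydl1. This pair was singled out after its values were seen and is given without a test. Of the 861 pairs among the 42 genes, 182 had ratios that did not overlap between 60 and 0 min, or 21.1%, and by size of shift this pair, at 1.16 on the log2 scale, ranked 9. By labelled times the ratio ranged over 1.31 to 2.63, 1.84 to 3.65 and 2.55 to 4.05 at 0, 30 and 60 min, so the times overlap.

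**Figure D5:**
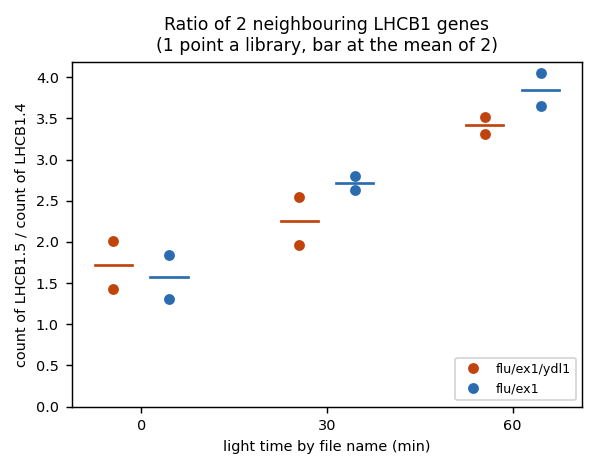
Count of LHCB1.5 divided by the count of LHCB1.4 in each library by light time in file names, with flu/ex1/ydl1 left of flu/ex1 at each time and a bar at the mean of 2 libraries. The 4 libraries at 60 min sit between 3.32 and 4.05, above the 4 at 0 min, which sit between 1.31 and 2.01.

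Other pairs of copies were described by ratios of counts, with times by file name only. LHCB1.2 had 0.390 ± 0.0727 counts for each LHCB1.1 count at 0 min and 0.402 ± 0.0373 at 60 min, and LHCB2.2 had 0.382 ± 0.0467 and 0.462 ± 0.0657 for each LHCB2.1 count (SD, n = 4 each). LHCB4.3 had 0.027 ± 0.0067 and 0.035 ± 0.0055 for each LHCB4.1 count. PSAD-2 had 0.238 ± 0.052 and 0.298 ± 0.064 for each PSAD-1 count. PSAE-2 had 0.352 ± 0.0394 and 0.314 ± 0.0328 for each PSAE-1 count. PSBO1 and PSBO2 encode the protein that stabilises the manganese cluster of the oxygen-evolving complex. PSBO2 had 0.194 to 0.221 counts for each PSBO1 count at 0 min and 0.241 to 0.262 at 60 min, ranges that do not overlap. Such a lack of overlap was met by 21.1% of all pairs among the 42 genes. At 30 min the PSBO ratio ran from 0.185 to 0.272, which covers both ranges. The ratio of PSAH2 to PSAH-1 ran from 0.484 to 1.36 over the 12 libraries and covered nearly the same range at 0 and at 60 min. PSBQ-2 had 0.566 ± 0.136 counts for each PSBQA count at 0 min and 0.569 ± 0.148 at 60 min (SD, n = 4 each). In the flu/ex1/ydl1 libraries numbered 1 this ratio was 0.38, 0.46 and 0.37, against 0.61, 0.70 and 0.73 in the other flu/ex1/ydl1 libraries.

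Genes that work beside the photosystems give a frame for these values. The lists included 15 other nuclear thylakoid and electron transport genes and 9 genes for the targeting, insertion and phosphorylation of light-harvesting proteins. Of both lists 0 genes were called by edgeR in any of the 11 comparisons, where 0.0112% to 15.5% of all loci were. Unadjusted p-values under 0.05 went to at most 3 and 2 of them in a comparison, and to 3.98% to 29.4% of all loci. Of 9 carbon fixation genes 3 rose at 60 min over both genotypes, where 9.82% of all loci rose. They were PRK for phosphoribulokinase (0.87 ± 0.19, adjusted p = 0.00449), RCA for Rubisco activase (0.87 ± 0.20, adjusted p = 0.00763) and RBCS2B for a Rubisco small subunit with close copies (0.94 ± 0.25, adjusted p = 0.0185). PRK had 55.8 and 42.6 CPM at 0 min and 75.0 and 74.3 CPM at 60 min in flu/ex1/ydl1, and 46.2 and 41.6 CPM at 0 min and 119.5 and 74.1 CPM at 60 min in flu/ex1. Of 6 regulators of photosynthesis genes 3 rose and 1 fell at 60 min over both genotypes, where 15.5% of all loci were called in either direction. SIG5, a light-induced sigma factor of the plastid RNA polymerase, rose by 2.87 ± 0.26 (adjusted p = 3.17e-06) and HY5, a transcription factor of light signalling, by 0.93 ± 0.19 (adjusted p = 0.00317). GLK2, a transcription factor that promotes photosynthesis genes, fell by 0.94 ± 0.20 (adjusted p = 0.0037), and GUN1, a plastid signalling protein, rose by 0.71 ± 0.21 (adjusted p = 0.0269). In flu/ex1/ydl1 GLK2 had 101.5 and 77.8 CPM at 0 min and 38.2 and 32.9 CPM at 60 min. In flu/ex1 it had 90.9 and 58.5 CPM at 0 min and 49.0 and 53.8 CPM at 60 min. Within flu/ex1 edgeR called 2 regulators at 60 min, both higher (1.38% of all loci). Within flu/ex1/ydl1 it called 1 higher and 1 lower (12.8% of all loci).

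SIG5 stood apart between darkness and light by file-name times. It had 1.08 and 3.79 CPM at 0 min, 16.7 and 17.5 CPM at 30 min and 24.7 and 19.7 CPM at 60 min in flu/ex1/ydl1. The flu/ex1 libraries had 3.32 and 3.74 CPM at 0 min, 21.5 and 19.9 CPM at 30 min and 24.4 and 17.8 CPM at 60 min. Every library that the file names place in light lies above every one they place at 0 min. In the genotype comparison over the 12 libraries edgeR called 0 of the genes in these 4 lists, where 8.97% of all loci were called. Unadjusted p-values under 0.05 went to 3 of 15 thylakoid genes and 1 of 9 carbon fixation genes. They also went to 2 of 9 targeting genes and 3 of 6 regulators, while 23% of all loci had one. By labelled times 0 were called in any comparison (at most 0.0336% of all loci).

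The 4 libraries whose time is the same in label and file name allow a check that needs no choice between them, with 1 library a group and no test. In flu/ex1/ydl1 60 min against 0 min, 25 of 42 genes were higher, with a median of 0.12 on the log2 scale, against -0.03 over all loci. This median differs in sign from that of the comparison with 2 libraries a group, -0.12 with 17 of 42 positive. Both libraries of this flu/ex1/ydl1 pair are among the 3 numbered 1 described above. In flu/ex1 29 of 42 were higher, with a median of 0.40, against 0.03 over all loci. The 0 min library of that flu/ex1 pair is replicate 2, whose ribosomal RNA share is given above, and what that share adds to the result was not tested.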

How the data were processed

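RNA-seq read counts per locus were analysed for 12 libraries of Arabidopsis plants, 1 count table a library with 36917 loci. The deposited values are raw counts. Per the submitters' processing notes the authors used Trimmomatic, FastQC, TopHat2 2.1.1, featureCounts and the genome build TAIR10. The annotation, strand setting and treatment of reads with several matches are not given in the sources used here. Gene names come from a RefSeq table of TAIR10.1, in which 36632 loci were found, and no coordinates or sequences are given because the builds differ.

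Genotype was taken from the labels and light time from the file names. In edgeR 4.0.16 (R 4.3.3), loci with few reads were removed by filterByExpr, set to a count of at least 10 and a total of at least 15. The rest were scaled by TMM and fitted as 6 groups. Benjamini-Hochberg adjustment ran over the 17879 loci left, in each of 11 comparisons, with a threshold of 0.05. The quasi-likelihood F of a gene and its fold change gave its standard error and 95% interval. The statistics were tested on simulated data with changes of at least a doubling or halving. This was done only for the genotype comparison over 12 libraries and for 60 min over both genotypes. The power to find smaller changes was not tested, nor was the power of the other comparisons, the interaction among them. Alternatives were labelled times, DESeq2 1.42.0, edgeR with the size factors of DESeq2, all loci unfiltered, nuclear loci alone, replicate numbers as a block and each library left out in turn.

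The 42 genes and the other gene lists were chosen with earlier results of these data known. Full values are given in each family for the gene with the highest mean CPM and the 2 genes with the smallest p over the 12 libraries and at 60 min over both genotypes, and for genes past the threshold. LHCB3, PSAH-1, PSBP-1, PSBW, GUN1 and the copies in the ratios were named after their values were seen.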

Additional observations from a re-analysis of the deposited data

Results flagged for a closer look

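Within the 6 libraries of each genotype, the highest or lowest library was compared with its nearest neighbour for each of the 42 genes. In 7 of 84 such groups 1 library stood apart by Dixon's criterion, which chance meets in about 1 in 20 groups of like values. The 6 libraries span different light times, and genes of 1 library vary together. The 7 groups can therefore not be set against that rate. In flu/ex1/ydl1 0 min replicate 3, PSAE-1 had 467.8 CPM (nearest library 371.4), PSAE-2 177.2 CPM (137.3), PSAH2 328.1 CPM (233.6) and PSAO 341.5 CPM (260.3), all high and all genes of photosystem I. In flu/ex1 0 min replicate 2, LHCA2 had 406 CPM (nearest library 555.2), LHCA3 275.5 CPM (426.2) and PSBX 358.6 CPM (446.1), all low. Both libraries belong to the 0 min groups on which every light comparison rests.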

How the results depend on the processing

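No comparison other than those given here changed its number of called genes by more than 1.5 times. By labelled times the counts over both genotypes were 0 at 30 min and 0 at 60 min. With DESeq2, 6 genes passed at 60 min over both genotypes (LHCB1.4 lower, the others higher), where 13.2% of loci did. At 60 min in flu/ex1 it passed 4 (2.52% of loci). Without the filter on low counts 5 passed at 60 min over both genotypes (10.3% of loci). In flu/ex1 3 then passed at 60 min (2.25% of loci) and 1 at 30 min (1.16% of loci). Same-numbered libraries were not pairs by the criterion of a correlation above 0.1 in every pair (correlations of -0.24 to 0.276 over 19 pairs, 8 of them above 0.1). The 3 pairs among the flu/ex1/ydl1 libraries numbered 1 were all above it (0.124, 0.16 and 0.21). Over the photosystem and light-harvesting genes alone these 3 correlations were higher, at 0.519, 0.82 and 0.782 in that order. Over those genes all 19 pairs ran from -0.473 to 0.82. The flu/ex1 library numbered 1, at 60 min, was also set against the flu/ex1/ydl1 libraries numbered 1 at 0, 30 and 60 min. Its correlations with them were 0.0882, 0.276 and -0.0101 over all tested loci, and 0.43, 0.68 and 0.171 over those genes. Some values occur in more than 1 pair, 0.16 and 0.276 among them, so the 19 pairs are not separate values. With the replicate block 5 passed at 60 min over both genotypes (15.1% of loci). Leaving out 1 library gave 0 to 7 at 60 min over both genotypes, 0 to 2 at 60 min in flu/ex1 and 0 to 1 at 30 min in flu/ex1/ydl1, a lone library left in a group being assumed to vary like the others. At 60 min in flu/ex1 the count was 2 when replicate 1 at 60 min of flu/ex1/ydl1 was left out, 1 for replicate 2 at that time and 1 for replicate 3 at 0 min of flu/ex1. At 30 min in flu/ex1/ydl1 it was 1 for either flu/ex1/ydl1 library at 60 min. For 60 min over both genotypes, the count fell to 0 when flu/ex1/ydl1 0 min replicate 1 was left out, and likewise for flu/ex1 0 min replicate 2 and for replicate 1 at 60 min of flu/ex1. It was 1 when either flu/ex1 library at 30 min, or replicate 3 at 60 min of flu/ex1, was left out. Leaving out replicate 3 at 0 min of flu/ex1 gave 7. Without the 3 flu/ex1/ydl1 libraries numbered 1, an alternative added after the data were seen, it was 0, and LHCA4 had a genotype difference of 0.0055. LHCB7 kept its call at 30 min in every setting but labelled times, where its change was -0.69. The cause of these shifts was not tested. With 2 libraries a group, the standard errors within a genotype or a time had a median of 0.29. Those of the interaction at 60 min had a median of 0.41.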
